A study of Mus musculus with 8 samples.

Results

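The imprinted genes examined here act on fetal and early postnatal growth and were followed in the mouse left ventricle: H19, Dlk1, Meg3, Rian, Peg3, Plagl1, Cdkn1c, Grb10, Mest and Ndn. They were chosen by symbol and are 10 of the 55385 genes in the count table, and all 10 passed the filter on low counts that left 15314 genes for testing. Gene expression was measured by RNA-seq of ribosomal-RNA-depleted total RNA from 8 left ventricle samples, 4 labelled Mst1-TG and 4 labelled WT. Mst1-TG mice carry an Mst1 transgene under the alpha-myosin heavy chain promoter, which limits it to cardiomyocytes, and develop dilated cardiomyopathy; Mst1 is a Hippo pathway kinase whose mouse gene is Stk4. WT mice were littermates without the transgene, and all mice were male and of the C57BL6 strain. The design text places the mice at 3 weeks of age, while the RNA extraction protocol gives 3 months, and the age was not settled here. Whether each sample came from its own mouse is not said in the labels, and the p-values cover the spread among these 8 samples, part of which may be technical.

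An imprinted gene is transcribed mainly from 1 parental copy, because DNA methylation laid down in the egg or the sperm marks the copies differently. Many genes active on the paternal copy promote growth before birth and many active on the maternal copy restrain it, and a number of them are turned down together in heart and other organs as the young animal's growth slows. The counts used here are per gene, so they do not tell the parental copies apart.

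Libraries held 21193536 to 23809256 estimated counts. Levels are given as CPM (counts scaled to a common library size) after scaling library sizes by trimmed mean of M values (TMM), and fold changes, as log2 of Mst1-TG over WT, carry the standard error (SE) of the edgeR quasi-likelihood fit across all 15314 genes, called at an adjusted p below 0.05. Stk4 counts, which include reads of the transgene as far as they match the mouse gene, lay at 1449 to 1747 CPM in Mst1-TG and at 25.2 to 29.6 CPM in WT, so that every library matched its label. Across all genes, 42.3% were called, 21.2% higher and 21.1% lower in Mst1-TG. The groups did not overlap in 40.3% of genes. Mitochondrially encoded genes took 12.9% to 14.4% of counts in Mst1-TG and 21.4% to 23.8% in WT. Scaling by library totals alone raised the median log2 fold change of all genes to 0.29, against 0.01 with TMM, and the values below are on the TMM scale.

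Of the 10 imprinted genes, 6 rose in Mst1-TG left ventricle (Peg3, Ndn, Mest, Plagl1, H19 and Grb10), 1 fell (Cdkn1c), and Meg3, Rian and Dlk1 did not pass the test. The 7 called genes were 70% of the 10, against 42.3% of all genes tested, and the median log2 fold change of the 10 was 0.37. The 10 genes and the lists below were chosen with earlier results of these data known, so such shares are description only. Higher calls made up 6 of the 10, against 21.2% of all genes, and lower calls 1 of the 10, against 21.1%. The groups did not overlap for 5 of the 10 genes (Peg3, Ndn, Plagl1, Grb10 and Cdkn1c), against 40.3% of all genes. By the copy known to be active in mouse, 4 of the 5 paternally expressed genes rose, Dlk1 being the exception. Of the 5 maternally expressed genes, H19 and Grb10 rose, Cdkn1c fell and Meg3 and Rian did not pass. In whole tissue, a change in the number of cells of one type and a change in RNA per cell cannot be told apart.

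**Figure D1:**
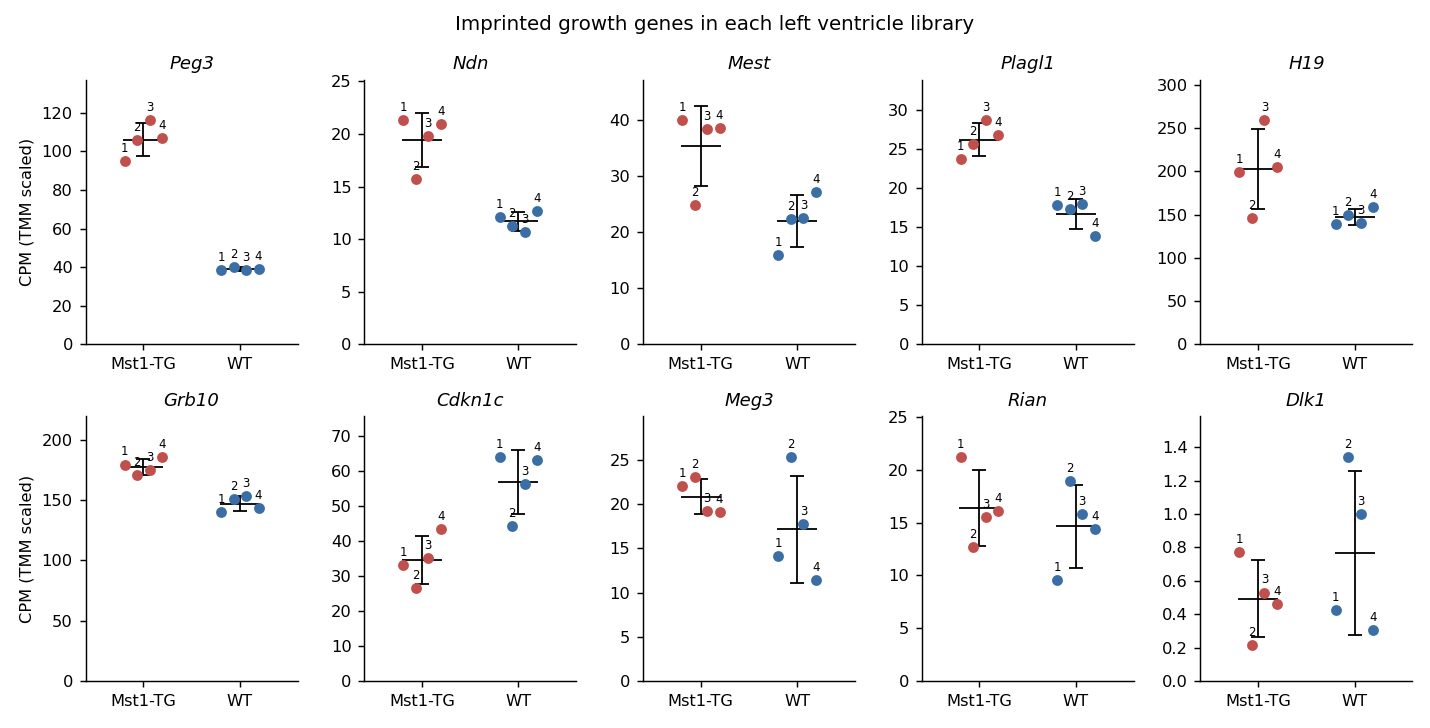
TMM-scaled CPM (vertical axes, each from 0) of the 10 imprinted genes in the 4 Mst1-TG libraries (left, red) and the 4 WT libraries (right, blue), with the replicate number over each point and the mean ± SD in black. Peg3 lay at 95.2 to 116 CPM in Mst1-TG and at 38.3 to 40.2 CPM in WT, whereas the groups of Meg3, Rian and Dlk1 overlapped.

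Peg3 showed the largest change of the 10. It encodes a zinc finger protein that is made from the paternal copy and takes part in fetal growth, maternal behaviour and muscle stem cell biology in mice. The gene lies on chromosome 7 at 6703892 to 6730431 on the minus strand (GRCm38 and GENCODE M21, as for all gene positions given), and its longest annotated transcript has 9 exons and 8694 bases. Its level was 95.2, 106, 116 and 107 CPM in Mst1-TG 1 to 4 and 38.3, 40.2, 38.5 and 39.2 CPM in WT 1 to 4. Every Mst1-TG library was far above every WT library, and the WT libraries lay within 2 CPM of each other. Peg3 averaged 106 ± 8.64 CPM in Mst1-TG and 39.0 ± 0.860 CPM in WT (SD, n = 4 each), a 2.72-fold rise (log2 fold change 1.44 ± 0.07, 95% interval 1.29 to 1.59, edgeR adjusted p = 1.1e-08). From the highest log2 fold change down, Peg3 ranked 466 of the 15314 genes tested.

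Usp29 starts 146 bases away from Peg3 on the opposite strand and is also active on the paternal copy. Usp29 held 7 to 13 counts per Mst1-TG library and 3 to 12 per WT library, too few to be tested. The level of the neighbour was therefore not resolved at this depth.

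The promoter window of Peg3 is shown because Peg3 had the largest change and because it was the only promoter of the 10 genes to hold both motifs searched. The motifs were GGGGCCCC, the core of a GC-rich element that Plagl1 is reported to bind and its own reverse complement, and GGAATG, the element of TEAD factors through which the Hippo pathway acts, read on both strands. The window runs from 250 bases before to 50 bases after the annotated start, 5′ to 3′ on the minus strand, at chr7:6730370-6730669 of GRCm38.p6 (RefSeq), with the motifs in capitals. In it, GGGGCCCC begins 201 bases and GGAATG 84 bases before the start.
Peg3: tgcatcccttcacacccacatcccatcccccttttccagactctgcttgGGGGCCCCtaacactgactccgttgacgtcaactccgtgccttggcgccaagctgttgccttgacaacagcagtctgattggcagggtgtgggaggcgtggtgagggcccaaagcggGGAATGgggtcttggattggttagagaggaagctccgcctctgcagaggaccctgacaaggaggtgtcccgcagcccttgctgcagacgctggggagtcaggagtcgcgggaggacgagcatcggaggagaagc
RefSeq windows were found for 8 of the 10 genes, 12 windows in all, with H19 and Cdkn1c having no entry. The windows are not all separate, as 2 windows of Mest are almost the same sequence. GGGGCCCC was in 1 of the 12 windows, against 1.08% of 32851 mouse promoter windows of the same length. GGAATG was in 2 of the 12, those of Peg3 and Rian, against 14.7%. By gene, GGGGCCCC was found for 1 and GGAATG for 2 of the 8. The 2 motifs do not overlap each other. Such a match describes the letters only.

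Plagl1 encodes a zinc finger transcription factor, also called Zac1, that restrains proliferation and regulates other imprinted genes in mouse, and is made from the paternal copy. It lies on chromosome 10 at 13060504 to 13131694 on the plus strand. Plagl1 stood at 23.7, 25.6, 28.7 and 26.8 CPM in Mst1-TG 1 to 4 and at 17.8, 17.3, 17.9 and 13.8 CPM in WT 1 to 4. The lowest Mst1-TG library was above the highest WT library, and WT 4 was set below the other WT libraries. Plagl1 rose 1.57-fold, with means of 26.2 ± 2.09 CPM in Mst1-TG and 16.7 ± 1.94 CPM in WT (SD, n = 4 each; log2 fold change 0.65 ± 0.10, 95% interval 0.44 to 0.86, edgeR adjusted p = 0.00011).

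Ndn encodes necdin, a MAGE family protein known for restraining proliferation and supporting differentiation, first in neurons. It is a single-exon gene on the plus strand of chromosome 7, at 62346569 to 62350262, in the region that corresponds to the human Prader-Willi locus. Ndn had 21.3, 15.7, 19.8 and 20.99 CPM in Mst1-TG 1 to 4, against 12.1, 11.2, 10.7 and 12.7 CPM in WT 1 to 4. All Mst1-TG libraries were above all WT libraries, with Mst1-TG 2 the nearest to them. The rise was 1.66-fold, from means of 19.5 ± 2.58 CPM in Mst1-TG and 11.7 ± 0.897 CPM in WT (SD, n = 4 each; log2 fold change 0.74 ± 0.11, 95% interval 0.50 to 0.97, edgeR adjusted p = 0.00011). Magel2, a related gene 26.7 kb from Ndn, had no count in any of the 8 libraries, which allows up to 3 counts per library, or 0.126 to 0.142 CPM of the unscaled total.

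Mest, also called Peg1, encodes a protein of the alpha/beta hydrolase family that is abundant in fetal mesoderm and marks growing tissue. It lies on chromosome 6 at 30723547 to 30748465 on the plus strand. Mest was at 40.0, 24.8, 38.3 and 38.6 CPM in Mst1-TG 1 to 4 and at 15.9, 22.3, 22.4 and 27.2 CPM in WT 1 to 4. The groups overlapped because Mst1-TG 2 lay below WT 4, while the other 3 Mst1-TG libraries were above every WT library. Mest rose 1.62-fold, with 35.4 ± 7.13 CPM in Mst1-TG and 21.96 ± 4.64 CPM in WT (SD, n = 4 each; log2 fold change 0.69 ± 0.18, 95% interval 0.28 to 1.10, edgeR adjusted p = 0.013). The last 912 bases of Mest overlap Copg2 on the other strand, whose log2 fold change was 0.04 ± 0.07 and did not pass (edgeR adjusted p = 0.72). The libraries came from a directional kit, but no source used here gives the strand setting of the counting, so how reads of the shared stretch were divided is not known.

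Mest and H19 each hold a microRNA hairpin. Their mature sequences are shown because the host genes changed and the microRNAs are distinct products of the same loci, with the seed, bases 2 to 8 from the 5′ end, in capitals (RefSeq, GRCm38.p6). The 4 seeds all differ from each other.
mmu-miR-675-5p: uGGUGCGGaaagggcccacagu
mmu-miR-675-3p: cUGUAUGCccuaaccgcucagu
mmu-miR-335-5p: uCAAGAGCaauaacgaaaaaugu
mmu-miR-335-3p: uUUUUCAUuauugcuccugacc
The hairpin gene Mir675 had 0 counts and Mir335 had 5 counts over all 8 libraries, so these libraries measured the host transcripts and not the mature microRNAs.

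H19 is a long noncoding RNA made from the maternal copy that is abundant in fetal mesoderm and is known in mouse to limit fetal growth, partly as the host of miR-675. It lies on chromosome 7 at 142575529 to 142578143 on the minus strand, and its neighbour Igf2, the paternally expressed fetal growth factor with which it shares enhancers, lies 72.6 kb away. H19 reached 199, 146, 259 and 205 CPM in Mst1-TG 1 to 4 and 139, 149, 140.1 and 159 CPM in WT 1 to 4. Mst1-TG 2 lay inside the WT range and the other 3 Mst1-TG libraries above it, and the spread was wider in Mst1-TG. H19 averaged 203 ± 46.2 CPM in Mst1-TG and 147 ± 9.38 CPM in WT (SD, n = 4 each), a 1.38-fold rise (log2 fold change 0.46 ± 0.14, 95% interval 0.15 to 0.77, edgeR adjusted p = 0.022). This call was lost without WT 1, WT 2 or WT 3, with log2 fold changes of 0.44, 0.47 and 0.44 and edgeR adjusted p-values of 0.061, 0.051 and 0.060.

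Igf2 stood at 282, 217, 333 and 307 CPM in Mst1-TG 1 to 4 and at 236, 271, 289 and 309 CPM in WT 1 to 4. The groups overlapped, and Mst1-TG 2 was the lowest Mst1-TG library for Igf2 as it was for H19. The log2 fold change of Igf2 was 0.04 ± 0.12 (95% interval -0.23 to 0.31, edgeR adjusted p = 0.80). Counts of H19 per count of Igf2, a ratio within a library that needs no scaling, were 0.707, 0.673, 0.778 and 0.669 in Mst1-TG 1 to 4 and 0.589, 0.551, 0.485 and 0.516 in WT 1 to 4. All 4 Mst1-TG ratios were above all 4 WT ratios. The mean ratio was 0.707 ± 0.0507 in Mst1-TG and 0.535 ± 0.0450 in WT (SD, n = 4 each), a log2 difference of 0.40 or 1.32-fold. The two-sided exact permutation test gave p = 0.0286, the smallest that 4 against 4 libraries allow, and 0.0857 after Benjamini-Hochberg adjustment over the 3 ratios examined, so the difference did not pass.

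Cdkn1c was the only one of the 10 that fell. It encodes p57Kip2, an inhibitor of cyclin-dependent kinases that stops the cell cycle and limits fetal growth, and it is active on the maternal copy. The gene lies on chromosome 7 at 143458339 to 143461050 on the minus strand, 880.2 kb from H19. Cdkn1c was at 33.2, 26.6, 35.1 and 43.4 CPM in Mst1-TG 1 to 4, against 64.0, 44.1, 56.3 and 63.1 CPM in WT 1 to 4. Every Mst1-TG library was below every WT library, although Mst1-TG 4 and WT 2 lay next to each other. Means were 34.6 ± 6.94 CPM in Mst1-TG and 56.9 ± 9.18 CPM in WT (SD, n = 4 each), and the gene fell to 0.608 of the WT level (log2 fold change -0.72 ± 0.15, 95% interval -1.06 to -0.37, edgeR adjusted p = 0.0037). The antisense gene Gm44732, which overlaps Cdkn1c, held 48 counts over all 8 libraries, against 7982 for Cdkn1c.

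Grb10 encodes an adaptor that binds the insulin and IGF1 receptors and restrains their signal, and in most mouse tissues outside the brain it is active on the maternal copy. It lies on chromosome 11 at 11930508 to 12038683 on the minus strand. Grb10 had 179, 170.5, 174 and 186 CPM in Mst1-TG 1 to 4 and 140.1, 150.5, 153 and 144 CPM in WT 1 to 4. The groups did not overlap, and the spread was small in both. Grb10 rose 1.21-fold, the smallest of the 6 rises, with 177 ± 6.60 CPM in Mst1-TG and 147 ± 6.14 CPM in WT (SD, n = 4 each; log2 fold change 0.27 ± 0.06, 95% interval 0.14 to 0.40, edgeR adjusted p = 0.0026).

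**Figure D2:**
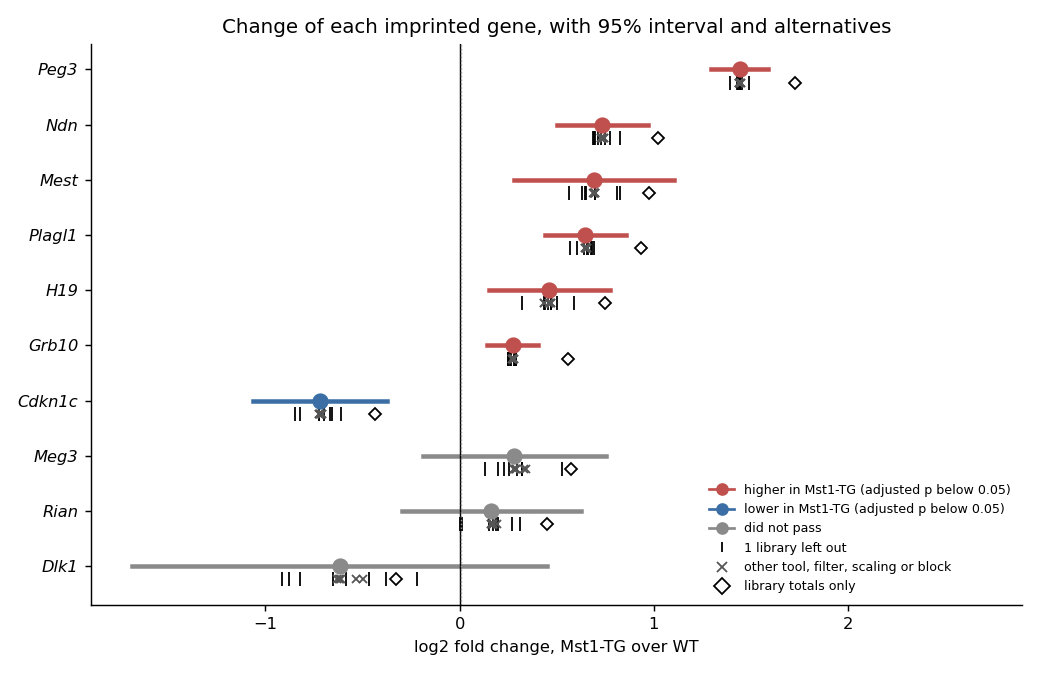
Log2 fold change of each imprinted gene, Mst1-TG over WT (horizontal axis), with its 95% interval; red, higher; blue, lower; grey, not passing at an edgeR adjusted p of 0.05. Ticks, crosses and open diamonds under each bar are the values with 1 library left out, with another tool, filter, scaling or block, and with library totals only; Peg3 (1.44) stands apart from the rest, and the diamonds lie to the right by about the shift of all genes.

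H19 and Cdkn1c belong to the same imprinted region of distal chromosome 7, which has 2 control regions. Around H19 and Igf2, H19 rose and Igf2 did not pass. Around Cdkn1c, the noncoding RNA Kcnq1ot1, which silences its neighbours on the paternal copy, had a log2 fold change of -0.01 ± 0.21 (95% interval -0.45 to 0.44, edgeR adjusted p = 0.99). Kcnq1, a potassium channel gene that overlaps Kcnq1ot1 on the other strand and may share reads with it, fell (-0.40 ± 0.09, edgeR adjusted p = 0.0024), as did the nucleosome assembly gene Nap1l4 (-0.46 ± 0.07, edgeR adjusted p = 0.00011). Osbpl5, an oxysterol-binding protein gene at the far end, rose (0.69 ± 0.08, edgeR adjusted p = 1.3e-05), and so did Tssc4 (0.28 ± 0.08, edgeR adjusted p = 0.014). Cd81 and Slc22a18 did not pass, and Ascl2 and Phlda2 had 0 to 4 counts per library and were not tested. Calls in both directions thus stood among neighbours within 1146 kb. Whether each of these neighbours is imprinted in ventricle was not examined.

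**Figure D3:**
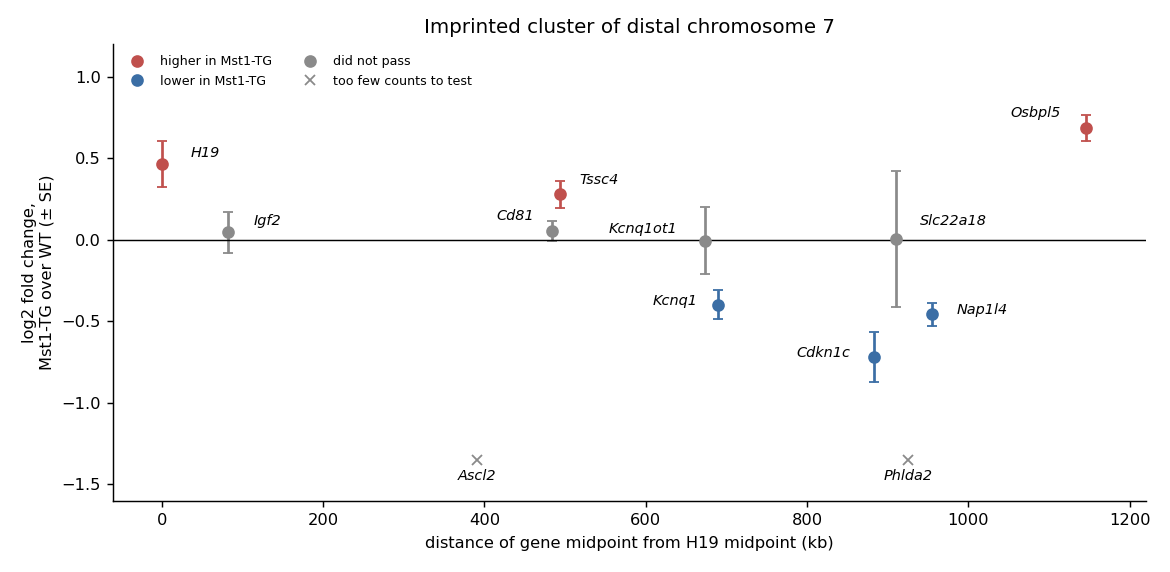
Log2 fold change, Mst1-TG over WT, with its SE (vertical axis) of the imprinted genes of distal chromosome 7 against the distance of the gene's midpoint from that of H19 in kb (horizontal axis); red, higher; blue, lower; grey, not passing; crosses, too few counts to test, placed at an arbitrary height. Cdkn1c (-0.72) is the lowest and Osbpl5 (0.69) the highest, and Igf2 lies at 0.04.

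Dlk1, Meg3 and Rian share one imprinted cluster on chromosome 12, and none of them passed the test. Dlk1, a membrane protein with EGF repeats that affects the Notch pathway and fetal tissue growth, is active on the paternal copy, while the noncoding RNAs Meg3 and Rian are active on the maternal copy. They run on the plus strand from 109452823 to 109463336 (Dlk1), from 109541001 to 109571726 (Meg3) and from 109603940 to 109661716 (Rian), with gaps of 77.7 kb and 32.2 kb.

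Meg3 stood at 22.1, 23.1, 19.2 and 19.1 CPM in Mst1-TG 1 to 4 and at 14.2, 25.4, 17.7 and 11.4 CPM in WT 1 to 4. WT 2 was the highest of all 8 libraries, while the other 3 WT libraries lay below every Mst1-TG library. The log2 fold change was 0.28 ± 0.21 (95% interval -0.19 to 0.75, edgeR adjusted p = 0.32), from 20.9 ± 2.02 CPM in Mst1-TG and 17.2 ± 6.06 CPM in WT (SD, n = 4 each). Without WT 2 the log2 fold change of Meg3 was 0.53 and passed (edgeR adjusted p = 0.010). It shrank to 0.13 without WT 4 and to 0.20 without WT 1, and did not pass (edgeR adjusted p = 0.59 and 0.54). The estimate thus depended on single WT libraries, in both directions. Meg3 also passed with library totals only (0.57, edgeR adjusted p = 0.029).

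Rian hosts small nucleolar RNAs and microRNAs. It was at 21.2, 12.7, 15.6 and 16.1 CPM in Mst1-TG 1 to 4 and at 9.54, 18.97, 15.8 and 14.4 CPM in WT 1 to 4. The groups overlapped widely, with Mst1-TG 1 highest and WT 1 lowest. The log2 fold change was 0.16 ± 0.21 (95% interval -0.30 to 0.62, edgeR adjusted p = 0.56), with means of 16.4 ± 3.57 CPM in Mst1-TG and 14.7 ± 3.92 CPM in WT (SD, n = 4 each).

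Dlk1 was near the limit of detection, with 19, 5, 13 and 11 counts in Mst1-TG 1 to 4 and 9, 26, 21 and 6 counts in WT 1 to 4. In CPM these were 0.770, 0.216, 0.530 and 0.46 in Mst1-TG and 0.425, 1.34, 0.999 and 0.302 in WT. WT 2 and WT 3 were above all Mst1-TG libraries, and WT 1 and WT 4 were among them. The log2 fold change was -0.62 ± 0.49 (95% interval -1.69 to 0.45, edgeR adjusted p = 0.34), and no difference was detected at these low counts and this spread between libraries. Within WT, library 2 was the highest for all 3 genes of the cluster.

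Other genes of the cluster were as low as Dlk1. Rtl1, a retrotransposon-derived gene between Meg3 and Rian, had 2 to 8 counts per Mst1-TG library and 5 to 19 per WT library and was not tested, and the noncoding RNA Mirg did not pass (log2 fold change -0.18 ± 0.34, edgeR adjusted p = 0.70). Counts of Rian per count of Meg3 averaged 0.792 ± 0.175 in Mst1-TG and 0.893 ± 0.261 in WT (SD, n = 4 each; log2 difference -0.16, two-sided exact permutation p = 0.571, also 0.571 after adjustment over the 3 ratios). Counts of Dlk1 per count of Meg3 averaged 0.0250 ± 0.0108 in Mst1-TG and 0.0429 ± 0.0149 in WT (SD, n = 4 each; log2 difference -0.85, two-sided exact permutation p = 0.114, adjusted 0.171). Neither difference passed the test.

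To compare levels between the 10 genes, counts were divided by the length of the longest annotated transcript and scaled to the same sum over all genes in every library, a scale used here only for the order within a group. In Mst1-TG the order from the top was H19, Grb10, Cdkn1c, Mest, Peg3, Ndn, Plagl1, Rian, Meg3 and Dlk1. The ranges of neighbours overlapped for Cdkn1c and Mest, Mest and Peg3, Ndn and Plagl1, and Rian and Meg3. In WT the order was H19, Cdkn1c, Grb10, Mest, Peg3, Ndn, Plagl1, Rian, Meg3 and Dlk1, with overlap between Cdkn1c and Grb10, Ndn and Plagl1, and Rian and Meg3. H19 was at 144 to 269 in Mst1-TG and at 95.9 to 120 in WT on this length-scaled level, and Dlk1 at 0.105 to 0.385 in Mst1-TG and at 0.112 to 0.461 in WT. This level carries no TMM factors, so these ranges do not compare the groups, and on the TMM scale the groups of H19 overlapped. Grb10 and Cdkn1c, which moved in opposite directions, were apart in Mst1-TG (75.9 to 82.4 for Grb10 and 31.5 to 51.0 for Cdkn1c) and overlapped in WT (43.6 to 49.9 for Grb10 and 37.1 to 57.1 for Cdkn1c). That overlap depends on the length used: by mean transcript length Grb10 was above Cdkn1c in both groups, at 126 to 137 against 35.5 to 57.6 in Mst1-TG and at 77.6 to 88.1 against 44.5 to 67.5 in WT. The order within Mst1-TG then also put Mest above Cdkn1c and Plagl1 above Peg3, and in both groups Rian and Meg3 above Ndn.

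Among the Mst1-TG libraries, number 2 stood lowest most often. It was the lowest of its group for 7 of the 10 genes (H19, Dlk1, Rian, Cdkn1c, Grb10, Mest and Ndn) and the highest for Meg3. How often Mst1-TG 2 was lowest over all genes was not counted, so this is not read as a trait of the 10. The summed level of the 10 genes was 636, 551, 707 and 664 CPM in Mst1-TG 1 to 4 and 451, 481, 474 and 485 CPM in WT 1 to 4, a sum in which H19 and Grb10 weigh most. Mst1-TG 2 was thus the lowest of its group but above every WT library.

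Markers of some cell types moved with the groups and those of others did not. Beside them, 42.3% of all genes were called, 21.2% higher and 21.1% lower. Of 12 fibroblast markers 11 rose and none fell, among them Postn (log2 fold change 2.52 ± 0.10), Col1a2 (1.67 ± 0.13), Dcn (1.21 ± 0.09) and Pdgfra (1.13 ± 0.08), with edgeR adjusted p-values of 5.6e-07 or less. Their summed level was 9517, 6985, 8332 and 8261 CPM in Mst1-TG 1 to 4, lowest in Mst1-TG 2, and 3135 to 4089 CPM in WT. Of 10 cardiomyocyte markers 6 fell and 1 rose. Their sum was 37918 to 48282 CPM in Mst1-TG, highest in Mst1-TG 2, and 52436 to 62961 CPM in WT. Myl2, the ventricular myosin light chain, was at 2393 to 2841 CPM in Mst1-TG and 4359 to 5180 CPM in WT. RNA of ventricular muscle was thus seen in every library, which does not tell left from right ventricle.

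Of 10 smooth muscle and pericyte markers 3 rose and 3 fell, with sums of 5182 to 5606 CPM in Mst1-TG and 3185 to 3450 CPM in WT. Des, which cardiomyocytes also express, made 61.5% of that sum (3598 to 4229 CPM in Mst1-TG, 1354 to 1603 CPM in WT), and the other 9 markers summed to 1291 to 1584 CPM in Mst1-TG and 1746 to 2095 CPM in WT, the opposite direction. Of 10 endothelial markers 1 rose and 4 fell, with sums of 1985 to 3005 CPM in Mst1-TG and 2512 to 3032 CPM in WT. The fall of Flt1 was lost without Mst1-TG 2 or any 1 of the 4 WT libraries, that of Tie1 without Mst1-TG 1, Mst1-TG 2, WT 1, WT 3 or WT 4, and both, with that of Kdr, with library totals only. Of 9 leukocyte markers tested none rose and 1 fell, and the 10 listed summed to 233 to 310 CPM in Mst1-TG and 208 to 293 CPM in WT. Of 5 neural and Schwann cell markers tested 1 rose and 1 fell. The 9 listed summed to 12.5 to 19.7 CPM in Mst1-TG and 18.8 to 21.3 CPM in WT. Of 2 adipocyte markers tested neither passed. Fabp4, which capillary endothelium also expresses, made 99.5% of the adipocyte sum (476 to 951 CPM in Mst1-TG, 728 to 955 CPM in WT), and the other 5 markers summed to 0.13 to 11.1 CPM in Mst1-TG and 0.904 to 15.1 CPM in WT. Of 9 genes listed for skeletal muscle precursors only Tnnt3, a fast skeletal troponin T gene, had enough counts to be tested. Tnnt3 rose (2.17 to 3.89 CPM in Mst1-TG, 0.202 to 0.666 CPM in WT) and made 89.8% of the sum of the list. Its rise is therefore not one of precursor markers as a set. The other 8 summed to 0.0418 to 0.405 CPM in Mst1-TG and 0.0504 to 0.238 CPM in WT, with Pax7, Myf5 and Chrng at 0 in all libraries. The part of these cell types in the changes of the 10 imprinted genes was not tested.

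Other imprinted genes did not share one direction. Of 45 further imprinted genes listed, 33 were tested, 6 rose and 8 fell, which is 42.4% called against 42.3% of all genes, and their median log2 fold change was 0.01. Assignment of a listed gene to a parental copy follows general knowledge of mouse, and for several it is known only from placenta or brain. Among genes of the paternal copy, the amino acid transporter gene Slc38a4 rose (0.72 ± 0.10, edgeR adjusted p = 9.7e-05), as did Peg10 (0.60 ± 0.19, edgeR adjusted p = 0.022) and its divergent neighbour Sgce, a sarcoglycan gene (0.36 ± 0.09, edgeR adjusted p = 0.0045). Nnat fell (-1.15 ± 0.30, edgeR adjusted p = 0.0068), with Mcts2 (-0.73 ± 0.16, edgeR adjusted p = 0.0020) and Snrpn (-0.28 ± 0.08, edgeR adjusted p = 0.0086). Mcts2 is a retrogene, and its reads may be shared with its parent gene.

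Among genes of the maternal copy, Igf2r, the receptor that clears Igf2, rose to 273 ± 26.4 CPM in Mst1-TG, against 207 ± 6.81 CPM in WT (SD, n = 4 each; log2 fold change 0.40 ± 0.07, edgeR adjusted p = 0.00079). Airn, which overlaps Igf2r on the other strand and may share reads with it, did not pass (0.01 ± 0.11, edgeR adjusted p = 0.95). Osbpl5 and Tssc4, given above, rose as well. Slc22a3, an organic cation transporter gene near Igf2r, fell to 0.378 ± 0.235 CPM in Mst1-TG, against 2.89 ± 0.928 CPM in WT (SD, n = 4 each; log2 fold change -2.93 ± 0.40, edgeR adjusted p = 5.4e-05). Asb4 (-0.64 ± 0.20, edgeR adjusted p = 0.019) and the ubiquitin ligase gene Ube3a (-0.23 ± 0.07, edgeR adjusted p = 0.014) fell too, beside Kcnq1 and Nap1l4. With library totals only, 15 of the 33 were higher and 4 lower, Snrpn and Ube3a changed sign, and these genes, Kcnq1 and Asb4 no longer passed. The rise of Peg10 was lost without Mst1-TG 1, Mst1-TG 3 or WT 2, and the fall of Asb4 without WT 2, WT 3 or WT 4.

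**Figure D4:**
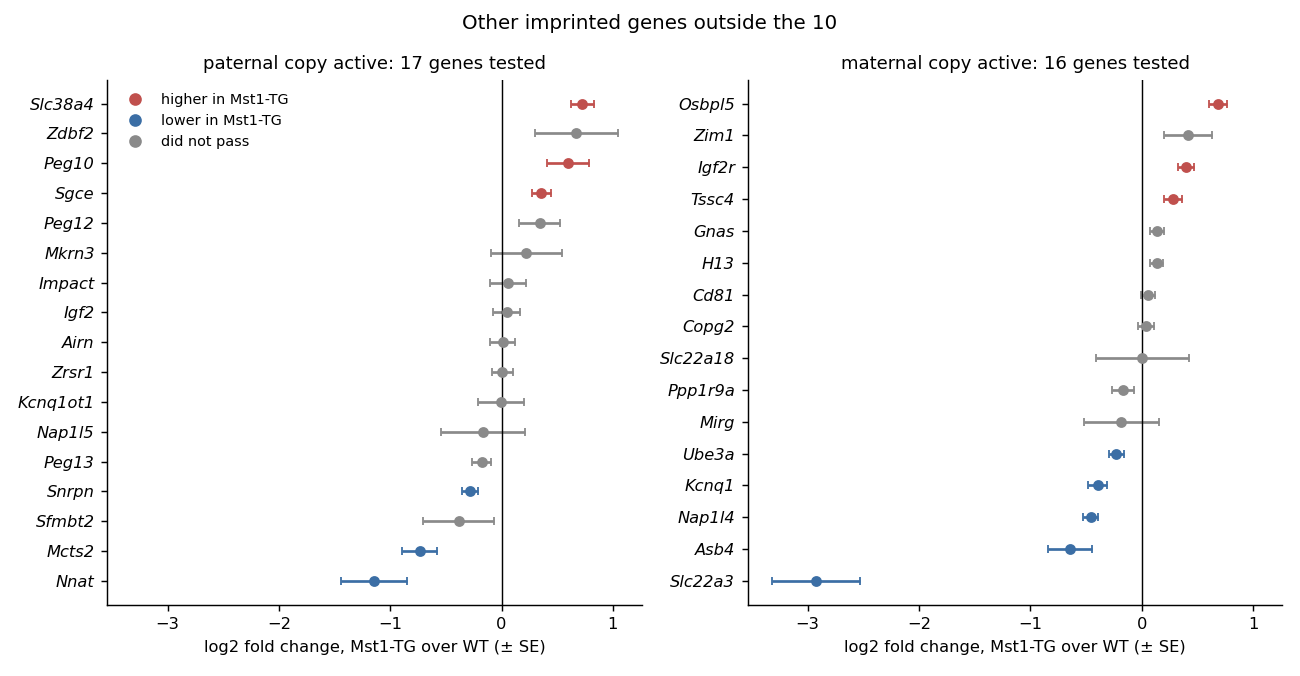
Log2 fold change, Mst1-TG over WT, with its SE (horizontal axes) of the 33 tested imprinted genes outside the 10, split by the copy known to be active (left, paternal, 17 genes; right, maternal, 16 genes); red, higher; blue, lower; grey, not passing at an edgeR adjusted p of 0.05. Values lie on both sides of 0, from -2.93 for Slc22a3 to 0.72 for Slc38a4.

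The pathways in which the 10 genes act were read from further gene lists. Beside Cdkn1c, 5 other cyclin-dependent kinase inhibitors of the CIP/KIP and INK4 families were tested; 3 rose and none fell (60% called, against 42.3% of all genes), whereas Cdkn1c fell. They were Cdkn2b, at 1.94 ± 0.451 CPM in Mst1-TG and 0.445 ± 0.144 CPM in WT (SD, n = 4 each; log2 fold change 2.12 ± 0.31, edgeR adjusted p = 9e-05), Cdkn2d (0.36 ± 0.11, edgeR adjusted p = 0.015) and Cdkn1a (0.44 ± 0.15, edgeR adjusted p = 0.041). The call of Cdkn1a was lost in 6 of the 8 fits that left out 1 library. Of 16 cyclins, partner kinases and cycling markers, 5 rose and none fell, which is 31.2% called against 42.3% of all genes. All of them were higher calls, and 21.2% of all genes were called higher and 21.1% lower. The median log2 fold change of the 16 was 0.51, against 0.01 for all genes. Ccnd2, a cyclin of early G1, rose to 208 ± 9.83 CPM in Mst1-TG, against 117 ± 4.08 CPM in WT (SD, n = 4 each; log2 fold change 0.83 ± 0.06, edgeR adjusted p = 2.6e-07). The related Ccnd1 (0.15 ± 0.16, edgeR adjusted p = 0.51) and Ccnd3 (0.19 ± 0.08, edgeR adjusted p = 0.073) did not pass. The other genes that rose were Cdk1 (1.29 ± 0.31), Ccna2 (1.27 ± 0.42), Ccnb2 (1.06 ± 0.30) and Mki67 (1.03 ± 0.29), with edgeR adjusted p-values of 0.0053 to 0.033.

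Of 10 tested genes of insulin and IGF signalling around Grb10, which are receptors, adaptors and the ligands Igf1 and Igf2, 3 rose and 3 fell, which is 60% called against 42.3% of all genes. Igf2 is also among the 33 other imprinted genes. Igf1, the postnatal growth factor, rose to 56.3 ± 5.24 CPM in Mst1-TG, against 26.9 ± 2.46 CPM in WT (SD, n = 4 each; log2 fold change 1.06 ± 0.08, edgeR adjusted p = 4.7e-07), and its receptor gene Igf1r rose (0.73 ± 0.10, edgeR adjusted p = 4.4e-05). Grb14, the adaptor of the Grb10 family, fell to 68.5 ± 7.25 CPM in Mst1-TG, against 111 ± 3.26 CPM in WT (SD, n = 4 each; log2 fold change -0.69 ± 0.07, edgeR adjusted p = 7.3e-06), while Grb10 rose. Pik3r1, the regulatory subunit of PI3 kinase, fell (-0.82 ± 0.06, edgeR adjusted p = 3.1e-07).

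Of 13 genes of the fetal growth programme that are not imprinted, 9 were tested, 5 rose and 1 fell, which is 66.7% called against 42.3% of all genes, with a median log2 fold change of 0.75. Ptn (1.29 ± 0.14) and Mdk (1.16 ± 0.19), related growth factors, rose, as did Igf2bp2, which binds Igf2 mRNA (1.12 ± 0.14), and the chromatin protein gene Hmga1 (0.75 ± 0.06), with edgeR adjusted p-values of 0.00032 or less. Mycn fell (-0.58 ± 0.17, edgeR adjusted p = 0.014). Of 11 tested genes that keep or read imprints, Dnmt1, the maintenance DNA methyltransferase, rose (0.28 ± 0.07, edgeR adjusted p = 0.0051), the zinc finger gene Zfp445 fell (-0.43 ± 0.09, edgeR adjusted p = 0.0024) and 9 did not pass, which is 18.2% called against 42.3% of all genes. The fall of Zfp445 was lost with library totals only (-0.15, edgeR adjusted p = 0.15).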

How the data were processed

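The authors deposited 1 table of estimated counts per gene for 8 libraries, whole numbers without scaling, made with kallisto 0.46.0 after bcl2fastq 2.19.1.403, per the submitters' processing notes. No source used here gives the annotation, the strand setting or any filter on reads. Of 55385 identifiers, 55144 match GENCODE M21 (GRCm38) without version, which gave positions and transcript lengths.

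Groups came from sample titles. With edgeR 4.0.16 in R 4.3.3, genes were filtered (filterByExpr, minimum count 10, minimum total 15), scaled by TMM and tested with the robust quasi-likelihood F test of Mst1-TG against WT, with Benjamini-Hochberg adjustment over all 15314 genes and a threshold of 0.05. The biological coefficient of variation was 11.4% and the median SE of a log2 fold change 0.111. The test was checked on simulated counts with few changed genes, in both directions, and the same spread for all genes. That check did not cover a share of changed genes or a shift in composition as large as in these data. No pair of replicates agreed within sampling noise. Ratios were computed with 0.5 added to each count and tested by exact permutation. Floors cover counting error only. Alternatives used DESeq2 1.42.0, limma 3.58.1, other scalings, other filters, a replicate block, another transcript length and each library left out.

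The 10 genes and the lists were chosen with earlier results of these data known. Named genes are all 10, every other imprinted gene called, cluster neighbours of the 10, Stk4, and up to 4 called genes with the smallest p of each other list. Ccna2, Ccnd1, Ccnd3, Mycn, Cd81, Slc22a18, Ascl2, Phlda2, Copg2, Airn, Fabp4 and the markers at 0 were named after their values were seen.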

Additional observations from a re-analysis of the deposited data

Results flagged for a closer look

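In groups of 4 libraries, 7 of 82 groups examined held a library set far from the other 3 (a gap to the nearest above Dixon's 95% critical value), and chance alone flags about 1 in 20 such groups. Mest was 24.8 CPM in Mst1-TG 2, below the other Mst1-TG libraries at 38.3 to 40.0 CPM. Plagl1 was 13.8 CPM in WT 4, below the other WT libraries at 17.3 to 17.9 CPM. Igf2r was 197 CPM in the same library, against 209.6 to 212 CPM in the other WT libraries. Kcnq1 was 26.3 CPM in Mst1-TG 3, below the other Mst1-TG libraries at 33.1 to 33.7 CPM. Asb4 was 4.44 CPM in Mst1-TG 3, above the other Mst1-TG libraries at 3.57 to 3.71 CPM, and 3.59 CPM in WT 1, below the other WT libraries at 6.61 to 7.004 CPM. The summed level of neural and Schwann cell markers was 19.7 CPM in Mst1-TG 1, above the other Mst1-TG libraries at 12.5 to 13.2 CPM.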

How the results depend on the processing

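Peg3, Plagl1, Cdkn1c, Grb10, Mest and Ndn had the same direction and passed in all 16 alternatives, H19 in 13 of 16, and Dlk1 and Rian were called in none. With library totals only, 7409 genes were higher and 1592 lower, 15 and 4 of the other imprinted genes, and the log2 fold changes of Mirg (0.10), Kcnq1ot1 (0.28), Snrpn (0.0027) and Ube3a (0.057) changed sign; the alternative omits the composition factor, which moved the median of all genes to 0.29. Kcnq1ot1, at -0.0051 in the main fit, was 0.0011 without a count filter and 0.0021 with a minimum count of 50. It was 0.013 with limma-voom, 0.0086 with the replicate block and -0.16 to 0.16 with 1 library left out. Over those fits Igf2 ranged from -0.039 to 0.15. The log2 ratio of Rian to Meg3 ranged from -0.28 to 0.019 and that of H19 to Igf2 from 0.35 to 0.45, H19 to Igf2 with exact permutation p = 0.0571, the smallest that 3 against 4 libraries allow. That of Dlk1 to Meg3 ranged from -1.07 without Mst1-TG 1 (exact permutation p = 0.0571) to -0.47 without Mst1-TG 2 (p = 0.229). Without the most abundant marker of each list, an alternative chosen after seeing the data, the log2 ratio of summed smooth muscle and pericyte markers was -0.35 without Des, against 0.70 with it. By mean transcript length, the length-scaled WT level was 136 for H19, 83.8 for Grb10, 58.5 for Cdkn1c, 23.8 for Mest, 19.6 for Plagl1, 11.5 for Rian, 10.3 for Peg3, 7.28 for Meg3, 3.64 for Ndn and 0.437 for Dlk1, so the order depends on the length used.

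Whether equal replicate numbers pair the samples is not said in the labels. Deviations from the group means correlated at -0.142, 0.0746, 0.0184 and -0.0183 for numbers 1 to 4. Only number 2 correlated best with its own number. Such correlations alone cannot show that the samples are unpaired, and pairing by other means was not tested. With a replicate block, 3064 genes were higher and 3123 lower, 6 and 1 of the 10 genes, and 6 and 8 of the other imprinted genes. In the paired form the log2 ratio of H19 to Igf2 was 0.40 with exact permutation p = 0.125, the smallest 4 pairs allow.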
